A study of Mus musculus with 4 samples.

Results

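SMAD4 binding was examined in mouse alveolar macrophages (AMs), which reside in the air spaces of the lung, at the genes of the transcription factors EGR1, EGR2 and EGR3 and of their corepressors NAB1 and NAB2. These 5 genes were taken by name from 20923 protein-coding genes. A SMAD4 peak was assigned to a gene when its summit lay in the gene body or within 100 kb of a curated RefSeq transcription start site (TSS) of that gene in the mouse build mm10. The 5 genes held 26 of the 16369 peaks of replicate 1 and 37 of the 19015 peaks of replicate 2. Where peaks of both replicates had 1 bp or more in common they were merged into a shared region, and 23 of the 10964 shared regions lay at these genes. Egr2 and Nab2 had 8 shared regions each, Egr3 had 5, Egr1 had 2 and Nab1 had none. The strongest lay 95.9 kb upstream of Egr2, with a fold enrichment over the control level of 24.0 in replicate 1 and 32.9 in replicate 2. A window also holds other genes, and only 4 of the 23 regions had a TSS of Egr2 or Egr3 as their nearest TSS.

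EGR proteins are zinc-finger transcription factors that bind GC-rich DNA. Growth factors induce their genes within minutes, largely through serum response factor and its partners. NAB1 and NAB2 do not bind DNA themselves but attach to an inhibitory domain of EGR proteins and repress their targets, and NAB2 is itself induced by EGR factors, which forms a negative feedback. EGR2 is known as a factor that AMs need to acquire and keep their identity in response to the lung niche signals TGFβ and GM-CSF, and SMAD4 is the common partner of the receptor-activated SMADs that carry TGFβ signals into the nucleus.

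The AMs came from wild-type C57BL/6J mice aged 9 weeks, with no deletion and no treatment in any sample. Cells recovered from the airways by lavage were sorted in aliquots of 200k cells. SMAD4 was immunoprecipitated with a combination of antibodies and the bound chromatin was tagmented on the beads (HT-ChIPmentation), in 2 SMAD4 samples with 2 input samples as controls. No values of the input samples themselves were used here beyond the control level that each peak carries. There was no second condition. Whether the replicates came from separate animals is not stated in the labels or methods, so differences between them may be technical. All 9 AM marker genes examined (Siglecf, Itgax, Marco, Pparg, Car4, Chil3, Ear2, Fabp1 and Krt79) were the nearest gene of at least 1 shared region, as were 1 of 7 markers of other lung, blood and stromal cells and 21.5% of all protein-coding genes. The 1 marker was the club cell gene Scgb1a1, with 4 regions. Within 100 kb the lists were less apart, with a shared region at 9 of 9 and at 6 of 7 markers, against 54.9% of all protein-coding genes. Peaks show binding near a gene and not its expression.

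The sequences within 100 bp of the summit are shown for the regions that the results turn on, namely the strongest region of Egr2 and its region with a SMAD string, the strongest and the farthest of the regions upstream of Egr3, the strongest pair of Nab2, and the only peak at a promoter of these genes. They are the mm10 reference (RefSeq GRCm38) on the + strand, and capitals mark the matches to the strings listed in the next paragraph.
Egr2, 95.9 kb upstream, chr10:67439454-67439654: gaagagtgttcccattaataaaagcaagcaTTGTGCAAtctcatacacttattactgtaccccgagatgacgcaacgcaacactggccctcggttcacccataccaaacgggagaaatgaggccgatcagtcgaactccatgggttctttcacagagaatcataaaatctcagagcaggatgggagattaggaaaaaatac
Egr2, 57.5 kb downstream, chr10:67595307-67595507: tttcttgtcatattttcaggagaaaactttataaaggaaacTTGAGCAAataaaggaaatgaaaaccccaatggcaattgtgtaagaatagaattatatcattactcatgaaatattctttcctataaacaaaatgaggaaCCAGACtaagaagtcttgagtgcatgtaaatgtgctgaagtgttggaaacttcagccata
Egr3, 52.5 kb upstream, chr14:70024750-70024950: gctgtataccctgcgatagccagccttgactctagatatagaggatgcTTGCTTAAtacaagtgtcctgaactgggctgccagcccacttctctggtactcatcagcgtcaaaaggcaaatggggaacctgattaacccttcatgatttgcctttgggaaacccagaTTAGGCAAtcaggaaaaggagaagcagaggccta
Egr3, 23.0 kb upstream, chr14:70054224-70054424: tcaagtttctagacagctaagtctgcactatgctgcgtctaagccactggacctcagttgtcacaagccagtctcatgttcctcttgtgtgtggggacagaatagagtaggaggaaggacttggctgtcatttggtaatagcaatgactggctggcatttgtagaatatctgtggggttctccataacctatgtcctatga
Nab2, 62.0 kb downstream, chr10:127604570-127604770: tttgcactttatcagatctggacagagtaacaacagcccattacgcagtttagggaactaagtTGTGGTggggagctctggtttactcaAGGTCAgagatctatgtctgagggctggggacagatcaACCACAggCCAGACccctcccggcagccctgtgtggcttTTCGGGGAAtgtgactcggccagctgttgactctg
Nab2, 66.5 kb downstream, chr10:127600107-127600307: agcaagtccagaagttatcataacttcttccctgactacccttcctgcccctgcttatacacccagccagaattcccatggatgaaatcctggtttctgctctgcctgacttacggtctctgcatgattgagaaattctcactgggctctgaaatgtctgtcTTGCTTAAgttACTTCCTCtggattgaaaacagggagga
Nab2, promoter peak of replicate 2, chr10:127667087-127667287: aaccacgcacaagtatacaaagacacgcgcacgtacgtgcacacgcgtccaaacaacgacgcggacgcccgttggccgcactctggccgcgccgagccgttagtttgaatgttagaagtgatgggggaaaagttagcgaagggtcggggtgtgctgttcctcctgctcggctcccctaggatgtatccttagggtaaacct

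Consensus strings were searched on both strands within 100 bp of the mean summit of the 23 regions, and 18 of them held at least 1 of 16 strings. No string was found in 21.7% of these regions and in 18.9% of all shared regions. The C/EBP string TTGCNNAA was the most frequent, in 11 of 23 regions (47.8%) against 40.8% of all shared regions. It was present at Egr1, Egr2, Egr3 and Nab2, and lay 66 bp from the summit in the strongest Egr2 region, where it read TTGTGCAA. RUNX strings (TGTGGT) were found in 4 of 23 regions (17.4%) against 26.4% of all, and all 4 were at Egr3 or Nab2. STAT5 strings (TTCNNNGAA), which belong to the effector of GM-CSF, were found in 4 regions (17.4%) against 8.07%, at Egr1, Egr2 and Nab2. PU.1 strings (GAGGAAGT) were found in 3 regions (13.0%) against 8.01%. The string of nuclear receptor half-sites (AGGTCA) was found in 2 regions (8.7%) against 15.4%, and that of AP-1 (TGANTCA) in 1 (4.35%) against 12.3%.

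Of the strings of SMAD proteins, GTCTGG was found in 2 of 23 regions (8.7%) against 11.2% of all shared regions. The palindrome GTCTAGAC and the GC-rich GGCGCC were found in none, against 0.465% and 1.01%. No other SMAD strings were searched, so a region without these may hold shorter or variant SMAD sites. No region held an EGR string, whether as GCGTGGGCG, GCGGGGGCG or the shorter GTGGGCG, which GCGTGGGCG contains. These strings were found in 0.0274%, 0.073% and 1.29% of all shared regions. The ELF5-type string CAGGAAGT (5.63%), the E-box CACGTG (3.65%), the RBPJ string GTGGGAA (4.14%) and the CArG box of serum response factor (1.34%) were not found in the 23 regions either. The region 62.0 kb downstream of Nab2 held the most kinds of string, with a SMAD string 38 bp from the summit, a nuclear receptor string 8 bp from it, 2 RUNX strings and a STAT5 string. The regions 14.9, 60.7 and 95.4 kb downstream of Egr2, 23.0 kb upstream of Egr3 and 29.5 kb downstream of Egr3 held none. A match is a description of the letters and not a bound site. With 23 regions, shares of this size have wide counting intervals, and no test of their difference from all regions was made.

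**Figure D1:**
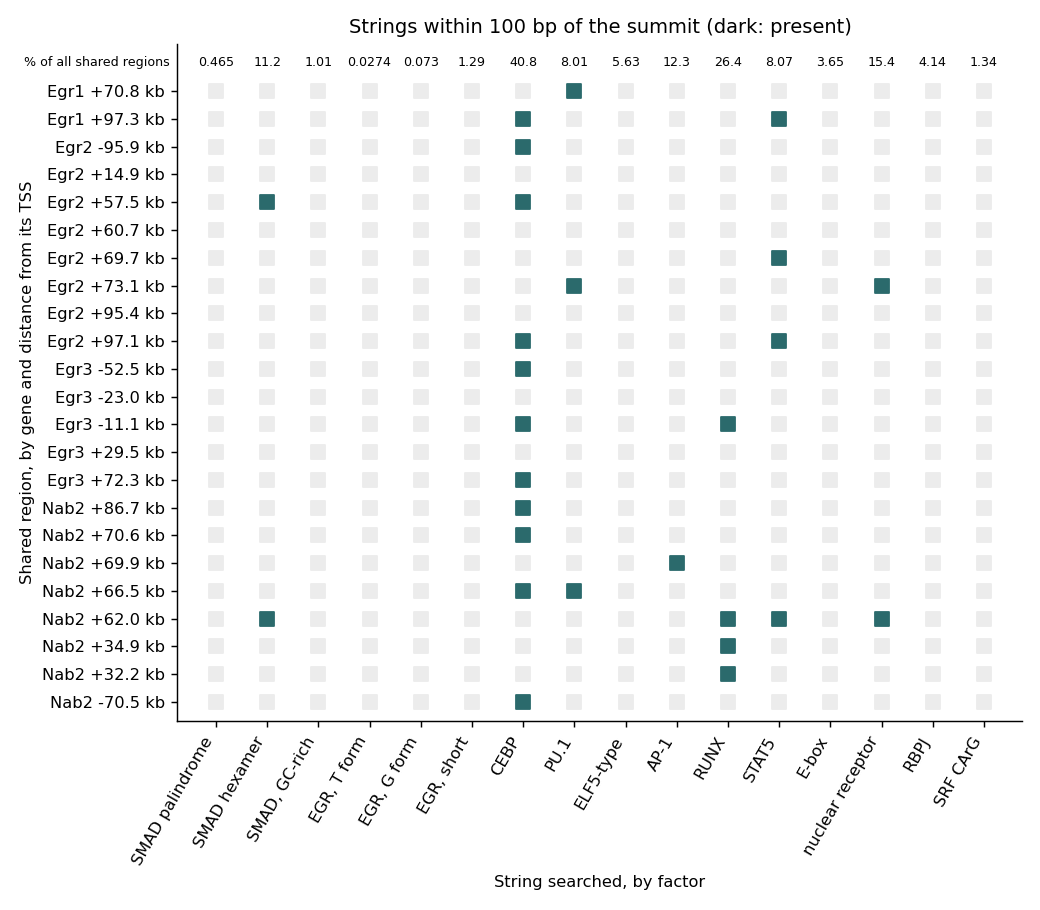
Presence (dark) or absence (light) of 16 strings within 100 bp of the summit in each of the 23 shared regions, which are named by gene and distance from its TSS in kb (positive is downstream), with the share of all 10964 shared regions that hold each string at the top. C/EBP strings fill 11 of 23 rows and the columns of EGR strings are empty.

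Egr2 encodes the EGR factor known for its part in AM identity, and lies on chr10:67535499-67542188, + strand (RefSeq GRCm38, gene ID 13654). It had 10 peaks in replicate 1 and 13 in replicate 2, which formed 8 shared regions, all of them intergenic. At least 8 shared regions were found at 2.1% of protein-coding genes. The strongest region (chr10:67439159-67439959, 801 bp wide) had 73 fragments stacked at the summit in replicate 1 (exact Poisson 95% interval 57.2 to 91.8) and 72 in replicate 2 (56.3 to 90.7), and its summits were 5 bp apart. These intervals, like the others given here, cover counting error only. The region ranked in the top 1.37% of peaks of replicate 1 and in the top 1.84% of replicate 2 by fold enrichment. It was the only shared region whose nearest TSS was that of Egr2, and it lay close to the limit of the window.

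The other 7 shared regions of Egr2 lay downstream of the gene, between 14.9 and 97.1 kb from a TSS. The region at 57.5 kb had fold enrichments of 9.10 and 13.8 (27 and 32 fragments), and the region at 95.4 kb had 9.84 and 12.6 (32 and 29 fragments). The remaining 5 regions had between 13 and 17 fragments in replicate 1 and between 9 and 22 in replicate 2. The interval of the region 95.9 kb upstream did not overlap that of any downstream region in either replicate. It was singled out as the strongest of the 8, so this is a description. The region at 14.9 kb was nearest to Ado, the gene of cysteamine dioxygenase, at 3895 bp from its TSS. The 6 regions from 57.5 to 97.1 kb were nearest to the long non-coding RNA gene 4930563J15Rik, at 23448 to 63101 bp from its TSS. At 4 downstream regions the control level was above the background of its library in at least 1 replicate, with levels of 2.35 fragments in replicate 1 and of 1.39 and 1.43 in replicate 2. Its part in these regions was not tested.

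Near the promoters of Egr2 no region was shared. Replicate 2 had a peak 3.07 kb upstream (chr10:67532334-67532482) with a fold enrichment of 6.03 and 14 fragments, and another 16.5 kb upstream with 4.44 and 9 fragments. Replicate 1 had a peak 31.9 kb upstream with 3.38 and 13 fragments, at a control level of 3.14 fragments. None of these overlapped a peak of the other replicate, so no shared region lay between the strongest region and the gene.

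**Figure D2:**
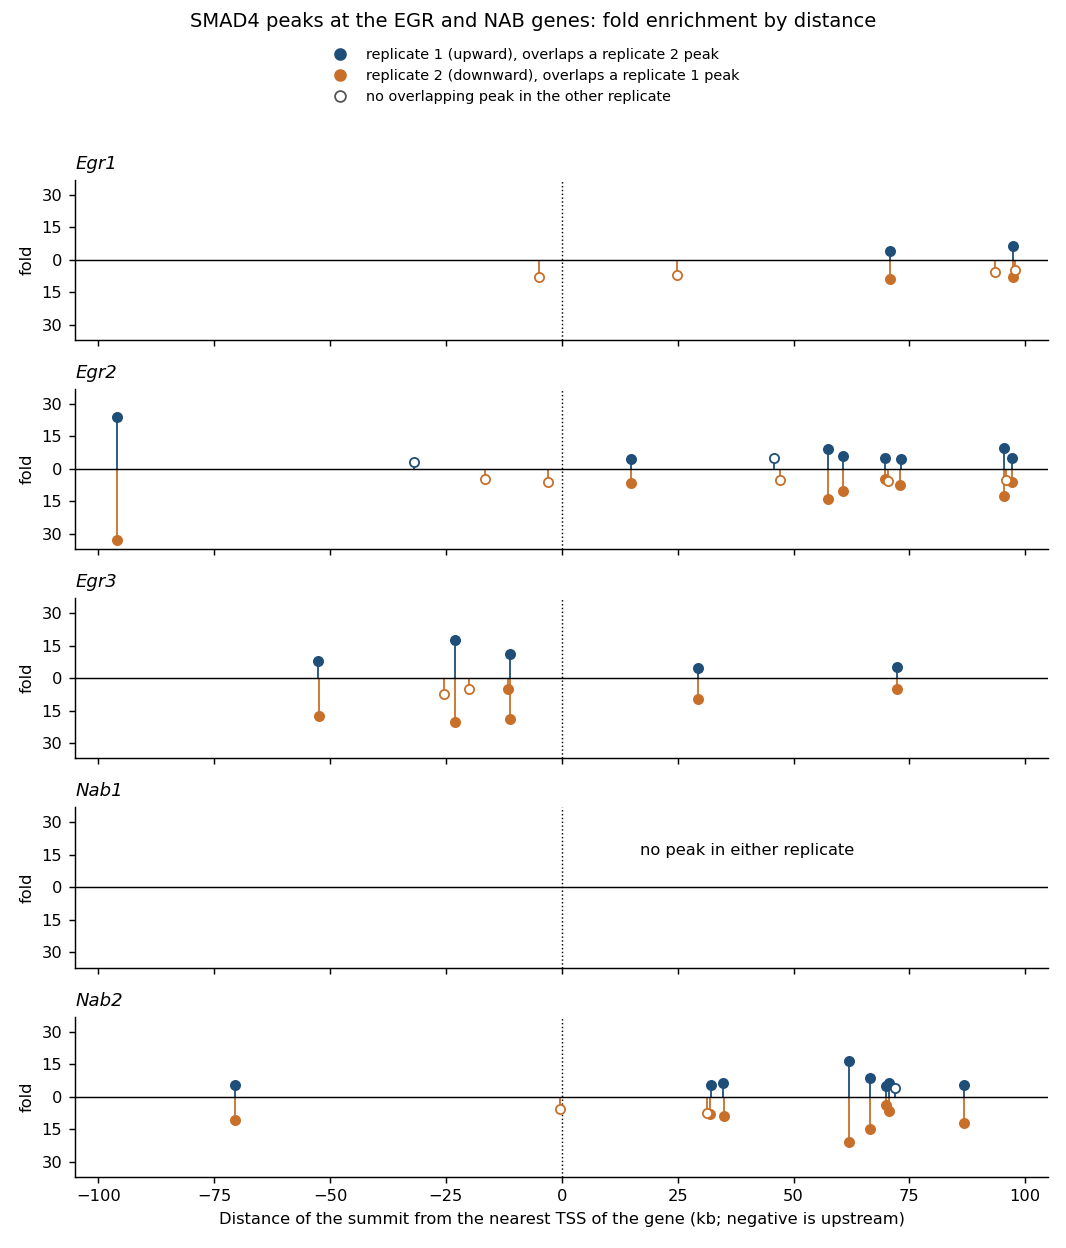
Fold enrichment of each SMAD4 peak (linear scale, replicate 1 upward, replicate 2 downward) by the distance of its summit in kb from the nearest TSS of Egr1, Egr2, Egr3, Nab1 and Nab2, with open circles for peaks that have no overlapping peak in the other replicate. The tallest pair stands 95.9 kb upstream of Egr2, Egr3 has its strong pairs upstream, Nab2 has them downstream, and Nab1 has no peak.

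Egr3 encodes a further immediate-early EGR factor and lies on chr14:70077317-70082613, + strand (gene ID 13655). It had 5 peaks in replicate 1, all with a partner, and 8 in replicate 2, of which 6 had a partner. At least 5 shared regions, as found here, were present at 8.51% of protein-coding genes. Of its 5 regions, 3 had the TSS of Egr3 as the nearest, more than at any of the other 4 genes. At least 3 nearest regions were found at 4.84% of protein-coding genes.

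All 3 of these regions lay upstream of Egr3. The region at 23.0 kb (chr14:70054034-70054705) had 53 fragments in replicate 1 (39.7 to 69.3) and 44 in replicate 2 (32.0 to 59.1), with fold enrichments of 17.5 and 20.3. The region at 11.1 kb had 33 fragments (22.7 to 46.3) and 41 (29.4 to 55.6), with 11.0 and 19.0. The region at 52.5 kb (chr14:70024658-70025125) had 23 fragments (14.6 to 34.5) and 38 (26.9 to 52.2), with 7.80 and 17.6. The order of the 3 was the same in both replicates. In replicate 1 the intervals at 23.0 and 52.5 kb did not overlap. In replicate 2 all 3 intervals overlapped, so that the order was not resolved there by counting. The regions were ordered by these same counts, so this is a description. The summits at 23.0 kb were 2 bp apart.

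The regions at 52.5 and 23.0 kb lay in an intron of Pebp4, a gene of the phosphatidylethanolamine-binding protein family, and the region at 11.1 kb was intergenic. Downstream of Egr3, a region at 29.5 kb in an intron of Bin3 had fold enrichments of 4.87 and 9.48 (14 and 20 fragments). Another at 72.3 kb in an intron of Ccar2 had 5.20 and 4.96 (15 and 10 fragments). Both were nearest to the TSS of their host gene and had fewer fragments than each upstream region in the same replicate. The unshared peaks of replicate 2, at 25.5 and 20.1 kb upstream with 15 and 10 fragments, stood on both sides of the strongest region.

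Egr1 encodes the most widely studied EGR factor and lies on chromosome 18 at 34861207 to 34864956, + strand (gene ID 13653). It had 2 peaks in replicate 1 and 6 in replicate 2, and 2 shared regions. At least 2 shared regions were found at 34.3% of protein-coding genes. The region 70.8 kb downstream had a fold enrichment of 4.22 in replicate 1 and 9.02 in replicate 2 (12 and 19 fragments), and lay at the promoter of Etf1, the gene of a translation termination factor, 15 bp from its TSS. The region 97.3 kb downstream had 6.17 and 8.12 (18 and 17 fragments), and was nearest to Hspa9, the gene of a mitochondrial chaperone. Both were nearer to another gene than to Egr1.

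Closer to Egr1, only replicate 2 had peaks. One lay 4.94 kb upstream with a fold enrichment of 8.12 and 17 fragments (9.90 to 27.2), and another 24.9 kb downstream with 7.22 and 15 fragments (8.40 to 24.7). They were nearest to Egr1 and had no overlapping peak in replicate 1. The first was as strong in replicate 2 as the shared region at 97.3 kb, at 8.12 each. Replicate 2 alone also had a peak at the Hspa9 promoter with 5.87 and 12 fragments.

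Nab2 encodes the corepressor that EGR factors induce, and lies on chr10:127660918-127666703, − strand (gene ID 17937). It had 9 peaks in replicate 1 and 10 in replicate 2, which formed 8 shared regions like those of Egr2 in number. In contrast to Egr3, no shared region had the TSS of Nab2 as its nearest. Of the 8 regions, 6 were nearest to Lrp1, which encodes an endocytic receptor of the LDL receptor family, 1 to Stat6, which encodes the STAT factor of IL-4 signalling, and 1 to Zbtb39, a zinc-finger gene. The window of Nab2 held a TSS of 9 other genes, against 4 for Egr1 and Egr3, 2 for Egr2 and 1 for Nab1.

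The strongest Nab2 region lay in an intron of Lrp1, 62.0 kb downstream of the TSS of Nab2 (chr10:127604449-127605006). It had 50 fragments in replicate 1 (37.1 to 65.9) and 45 in replicate 2 (32.8 to 60.2), with fold enrichments of 16.6 and 20.8, and its summits were 1 bp apart. The region at 66.5 kb, also in an intron of Lrp1, had 25 fragments (16.2 to 36.9) and 32 (21.9 to 45.2). The intervals of these neighbouring regions did not overlap in replicate 1 and overlapped in replicate 2. The region at 62.0 kb was singled out as the strongest of the 8, so this is a description. The other 3 regions inside Lrp1, at 69.9, 70.6 and 86.7 kb, had between 14 and 18 fragments in replicate 1 and between 8 and 26 in replicate 2. They were weaker in both replicates than the region at 62.0 kb.

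Between Lrp1 and Stat6, the region at 34.9 kb had fold enrichments of 6.17 and 9.02 and that at 32.2 kb had 5.20 and 8.12. The latter was 8466 bp from the TSS of Stat6, and 70.1% of its summit window was repeat-masked sequence. Upstream of Nab2, the only shared region lay at 70.5 kb near Zbtb39, with 5.52 and 10.8. At the Nab2 promoter itself, replicate 2 had a peak (chr10:127667100-127667245) with its summit 484 bp upstream of the TSS, a fold enrichment of 5.87 and 12 fragments (6.20 to 21.0). It lay 64 bp into the long non-coding RNA gene 1700012D01Rik and had no partner in replicate 1.

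**Figure D3:**
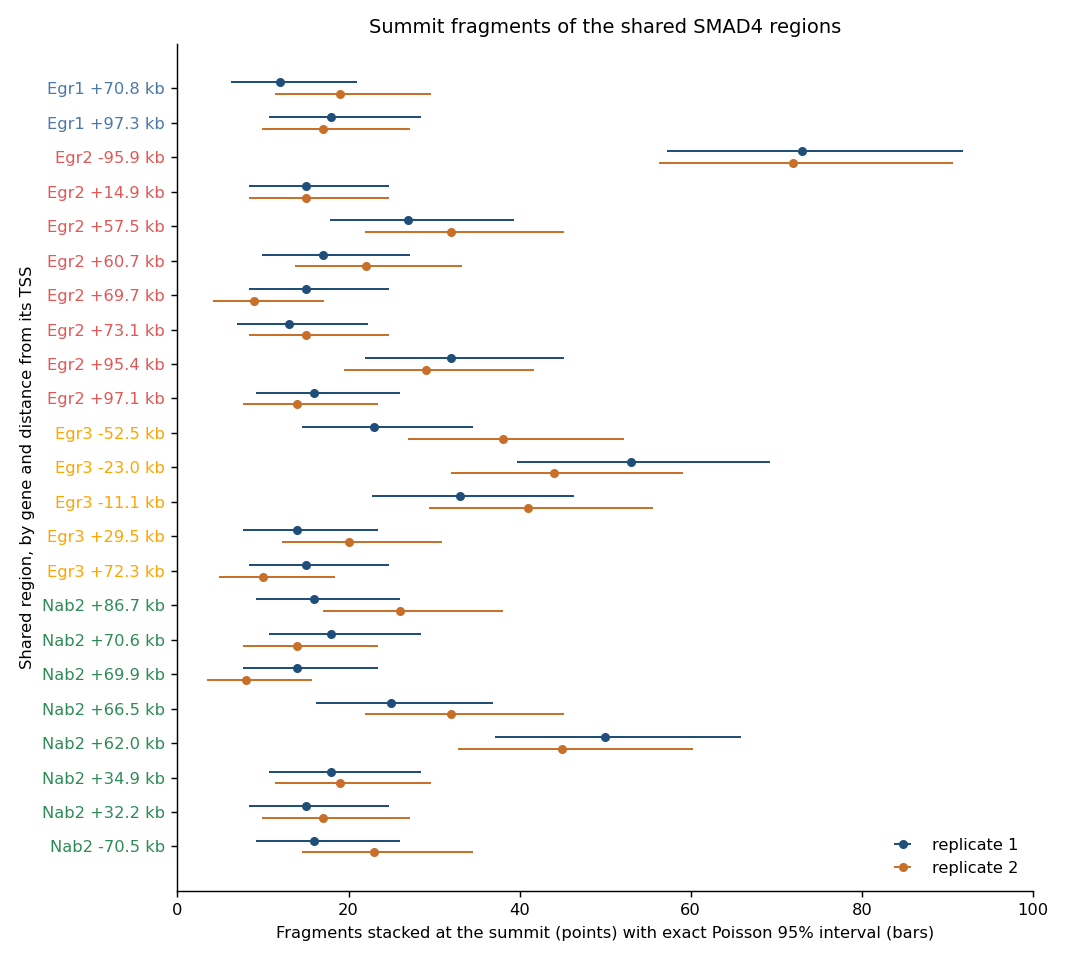
Fragments stacked at the summit (points) with exact Poisson 95% intervals (bars) in replicate 1 and replicate 2 for the 23 shared regions, named by gene and distance from its TSS in kb. The region 95.9 kb upstream of Egr2 has 73 and 72 fragments, followed by those 23.0 kb upstream of Egr3, with 53 and 44, and 62.0 kb downstream of Nab2, with 50 and 45.

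Nab1 encodes the related corepressor and lies on chr1:52455849-52500448, − strand (gene ID 17936). Neither replicate had a peak in its window of 200 kb, which was also the case for 25.7% of protein-coding genes. A shared region was absent at 9436 genes in all, Nab1 included. The nearest peaks outside the window lay 153 kb upstream, in a shared region nearest to Nemp2 with fold enrichments of 12.7 and 25.3, and 334 kb downstream. A peak list shows only positions that passed the q limit of 0.05, so weaker binding at Nab1 was not detectable in these lists.

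At least 1 shared region was thus found at 4 of the 5 genes, against a background of 54.9% of protein-coding genes. Ranked by the number of shared regions among 20923 genes, Egr2 and Nab2 stood at place 263 (177 genes tied), Egr3 at 1122 and Egr1 at 4485. The median gene had 1 region and the highest had 21. Of the 11487 genes with a shared region, 4.05% had a strongest region at or above that of Egr2, by the smaller of its fold enrichments in the replicates. The same share was 12.0% for Egr3, 14.3% for Nab2 and 74.7% for Egr1. These shares hold for the 100 kb window. The strongest region of Egr2 lay 95.9 kb from its TSS, and within 50 kb Egr2 kept 1 region, with 4.77 and 6.70. That of Nab2 lay in an intron of Lrp1. Egr2 and Nab2 were alike in number of regions, but the regions of Nab2 lay among more TSSs of other genes.

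**Figure D4:**
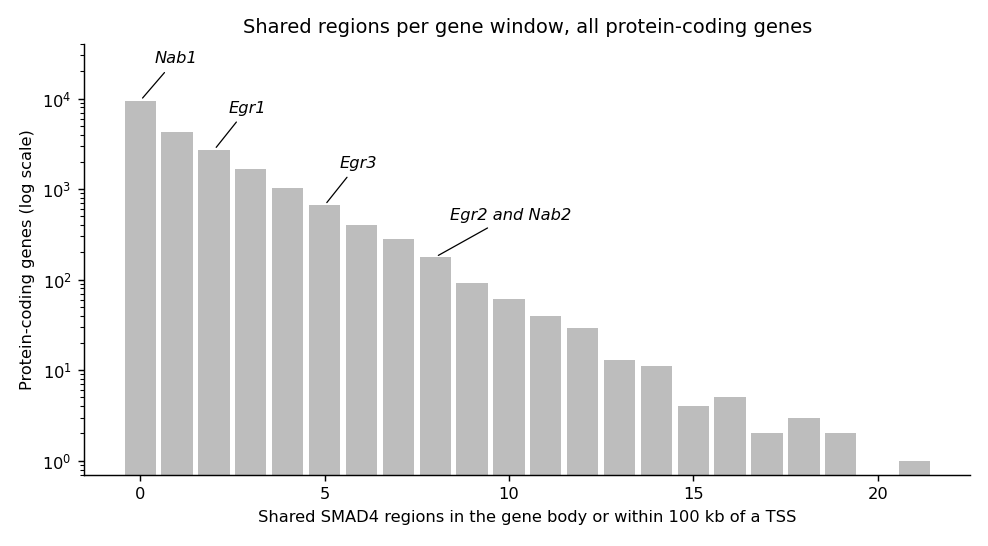
Number of protein-coding genes (log scale) by the number of shared SMAD4 regions in the gene body or within 100 kb of a TSS. Nab1 is among the genes with 0, Egr1 among those with 2, Egr3 among those with 5, and Egr2 and Nab2 among those with 8.

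All shared regions of these genes lay more than 10 kb from their start sites, but with only 5 genes this is not read as a trait of them. Within 10 kb of a TSS or in the gene body, 0 of the 5 genes had a shared region, against 20.6% of protein-coding genes. Within 50 kb, 3 of the 5 had one, against 39.1%, with 3 regions at Egr3, 2 at Nab2 and 1 at Egr2. By nearest TSS at any distance, 2 of the 5 genes had a shared region, against a background of 21.5%. Of the 23 regions, 13 (56.5%, Clopper-Pearson 95% interval 34.5 to 76.8) were intergenic, 9 (39.1%, 19.7 to 61.5) intronic and 1 (4.35%, 0.11 to 21.9) at a promoter, that of Etf1. Among all shared regions the shares were 40.5%, 49.3% and 6.42%, which lie within these intervals. The intervals take the regions as independent although many share a locus, so this is a description and not a test. The closest shared region was 11.1 kb from a TSS for Egr3, 14920 bp for Egr2, 32183 bp for Nab2 and 70811 bp for Egr1.

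The limit of 100 kb cut through binding on some sides. The outermost shared regions inside it were those 95.9 kb upstream and 97.1 kb downstream of Egr2 and 97.3 kb downstream of Egr1. Just outside lay a shared region 102 kb upstream of Egr1, nearest to Fam53c, with fold enrichments of 9.42 and 13.1. Another lay 120 kb downstream of Egr2 with 7.15 and 8.57, and another 135 kb downstream of Egr3, nearest to Sorbs3, with 11.4 and 14.0. Around Nab2 the first shared regions outside were 355 kb downstream and 465 kb upstream, so a moderately wider limit would leave its count at 8. A narrower limit lowered the count, to 2 within 50 kb and 0 within 10 kb.

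Of the peaks at these genes, 23 of 26 in replicate 1 (88.5%, Clopper-Pearson 95% interval 69.8 to 97.6) had a partner in replicate 2, against 69.4% of all peaks of replicate 1. In replicate 2, 24 of 37 (64.9%, 47.5 to 79.8) had a partner, against 59.2% of all. The 3 unshared peaks of replicate 1 had 12 to 15 fragments and the 13 of replicate 2 had 9 to 17, whereas peaks with a partner had medians of 17 and 19.5. In the whole lists, peaks with a partner had a median of 20 fragments in each replicate, and those without had medians of 13 and 11. The background control level was 2.08 fragments in replicate 1 and 1.22 in replicate 2, and all peaks had medians of 17 and 14 fragments.

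Fold enrichment was higher in replicate 2 than in replicate 1 in 20 of the 23 regions (87.0%) and in 87.2% of all shared regions. The fold divides by the control level, whose background was lower in replicate 2 (1.22 against 2.08 fragments). A higher fold there is thus not the same as more fragments. At the strongest regions of Egr2, Egr3 and Nab2 the fragment counts were slightly higher in replicate 1, with intervals that overlapped between replicates. Across the 23 regions the fold enrichments of both replicates had a Spearman rho of 0.794 and a Pearson r of 0.847 on the log2 scale. Regions of a library share its depth and some share a locus, so these are descriptions. Across all 10964 shared regions the rho was 0.782. The median fold enrichments of the 23 regions were 5.85 and 9.48, against 6.82 and 9.48 for all, with a median width of 452 bp against 440 bp.

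**Figure D5:**
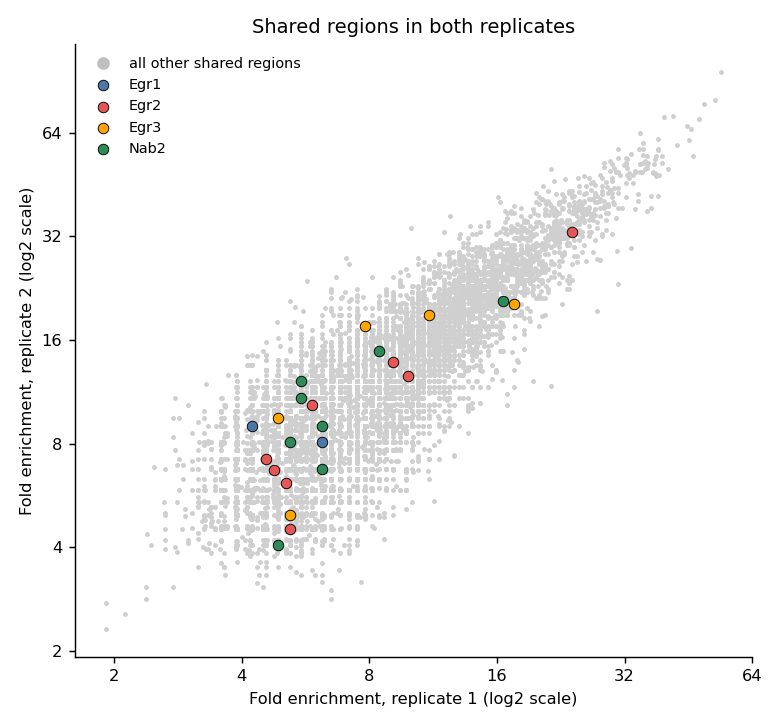
Fold enrichment of every shared region in replicate 1 (horizontal) and replicate 2 (vertical), both on log2 axes, with the 23 regions at Egr1, Egr2, Egr3 and Nab2 coloured by gene over all other shared regions in grey. The region upstream of Egr2 stands at 24.0 and 32.9, and those of Egr1 stand low, at 4.22 and 9.02 and at 6.17 and 8.12.

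Further genes of the EGR and NAB circuit were counted by nearest TSS, unlike the window counts given above for the 5 genes. Counted by nearest TSS, Egr3 had 3 shared regions, Egr2 had 1, and Egr1, Nab1 and Nab2 had none. Of 15 genes, 8 had at least 1 shared region, against the background of 21.5%, and 10 had one in their window, against 54.9%. Gfi1, a zinc-finger repressor gene regulated by EGR factors, had 4 regions (6 in its window). The strongest region of Gfi1 lay 29048 bp upstream with fold enrichments of 20.5 and 30.2. It came nearer to that of Egr2 in fold enrichment than those of the genes named next. Among the partners of serum response factor, Mkl1 had 4 regions (strongest 6.50 and 7.67), Mkl2 had 3 (12.8 and 19.4) and Elk3 had 1 (4.87 and 7.67). Srf itself, Elk1 and Elk4 had none, though 1 region lay in the window of Elk1.

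The kinase gene Mapk3 had 2 regions, with strongest fold enrichments of 5.52 and 10.8. Of the corepressor genes, Ddx20 had 1 region 1319 bp from its TSS (4.22 and 4.51). Chd4 had none, though 1 region lay in its window. The family member Egr4, the coactivator gene Hcfc1 and the ubiquitin ligase gene Wwp2 had none, and Egr4 had none in its window either. Stat6 had the 1 region between Lrp1 and Stat6 already described for Nab2. The window of Stat6 held 8 regions and shares regions with that of Nab2. By nearest TSS, regions were thus found at Gfi1 and at some genes that act before the EGR factors, but not at Srf, Elk1 or Elk4. By window, 10 of the 15 genes had a region, beside 54.9% of all protein-coding genes. Which gene each region acts on was not tested.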

How the data were processed

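SMAD4 HT-ChIPmentation peak lists of 2 AM samples were analysed. According to the study's methods, reads were trimmed by the authors (Cutadapt) and aligned to mm10 (Bowtie2). Duplicates were marked (PICARD), only confidently mapped proper pairs were kept (samtools), and peaks were called with MACS3 at a q limit of 0.05 against input. There is 1 deposited list per SMAD4 sample. For each peak the deposited values are a fold ratio, which equals the fragments at the summit plus 1 divided by the control level plus 1, with its −log10 p, its −log10 q and a score. The score that the authors deposited, 10 times the −log10 q, was not used. The fold and p values are the authors' own and served to describe and filter peaks.

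The pileup (in fragments) and the control level were solved from the fold and the p value of each peak. Depth enters only through these levels, since sequencing totals were not used here. Gene models were 45657 curated RefSeq transcripts of GRCm38, the assembly of mm10, with predicted transcripts left out. The summit, or the mean of the summits of a shared region, gave the distance to a TSS, the nearest gene and the feature (promoter from 1 kb upstream to 100 bp downstream of a TSS). Mkl1 and Mkl2 are listed there as Mrtfa and Mrtfb. Replicate numbers were given in accession order.

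The genes named are the 5 members, the nearest genes of their shared regions, and a list of 15 circuit genes, with values for those nearest to a shared region. The values of 1 circuit gene are not reported here, and sequences are printed for some regions only. Members and lists were chosen with earlier results of these data known, so their counts stand beside those over all genes and no test was made. Alternatives were stricter q and fold limits, other definitions of overlap, other windows, all RefSeq transcripts, other string windows, and each replicate alone. Pileups, windows and partners were tested on simulated data. Analyses used Python 3.11.15, numpy 2.4.6, pandas 2.3.3, scipy 1.17.1 and matplotlib 3.10.9.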

Additional observations from a re-analysis of the deposited data

How the results depend on the processing

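The width of the window moved the counts most. Within 50 kb, the genes had 8 and 16 peaks in replicates 1 and 2, with partners for 43.8% of the latter, and 6 shared regions. Within 10 kb they had 0 and 3 peaks, with partners for 0% of the latter, 0 shared regions and 0 genes with one. By nearest TSS they had 5 and 11 peaks, with partners for 45.5% of the latter, and 4 shared regions at 2 genes. The share of all protein-coding genes with a shared region was 39.1%, 20.6% and 21.5% under these windows, 53.9% at a q of at most 0.001, 48.2% at a fold of at least 5, 49.6% with a reciprocal overlap of 50% and 50.2% with summits within 100 bp. With the peaks of either replicate alone taken as regions, their number ranged from 26 to 37, the genes with a region stayed at 4, and the background ranged from 64.1% to 68.8%. Regions with a string fell to 11 in windows of 50 bp each side. At a fold of at least 5, Egr2 kept 5 regions, Egr3 3 and Egr1 1. Beside the whole list (59.2%), the partner share of replicate 2 was thus higher within 100 kb and lower in the other windows. In replicate 1 the share stayed above that of its list (69.4%), at 75% within 50 kb and 80% by nearest TSS. The genes with a region went from above to below the background within 10 kb. With 5 genes and so few peaks, these differences are descriptions and were not tested. No alternative was added later. No paired analysis was possible because replicate numbers pair no samples and there is only 1 condition. The lists hold only peaks past the q limit, with at least 9 and 7 fragments, so weaker binding is not seen. Binding was assigned by distance, and expression was not measured in these samples.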
